A study of Saccharomyces cerevisiae with 6 samples.

Results

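The vacuole is the lysosome-like compartment of budding yeast, and the genes described here encode its main peptidases, its alpha-mannosidase and the small cytosolic inhibitors of its endoproteases. The set was given by name: the endoproteases PEP4 and PRB1, the carboxypeptidases PRC1 and CPS1, the aminopeptidases APE1, APE3 and DAP2, the mannosidase AMS1, and the inhibitors PBI2 and PAI3. Of these 10 genes, 9 had a probe that carried their symbol, out of 5379 named genes on the array, and each of the 9 had 1 probe. PRB1 was not matched to a probe and was not analysed here. A log2 ratio was present on all 3 arrays for 6 of the genes (PEP4, PRC1, CPS1, APE1, APE3 and DAP2), on 2 arrays for AMS1 and PAI3, and on 1 array for PBI2. For comparison, 39.7% of all named genes had a value on all 3 arrays.

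The arrays compared Saccharomyces cerevisiae strain S288C grown in YPD, a rich glucose medium, at 25 °C. Treated cells received formaldehyde at 1.8 mM for 2 h during exponential growth, and control cells from the same kind of culture were grown on for 2 h with no addition. Treated poly(A) RNA was labelled with Cy5 and control RNA with Cy3, both were hybridised to one array, and 3 independent biological samples gave 3 arrays, each read by the scanner at a high and then a low power setting (6 scans). Every array carried the treated RNA in Cy5, so a gene-specific dye effect and the treatment cannot be told apart. The labels list the treated sample as channel 1, and ratios are therefore read as treated over control. This direction is likely but not stated, and a turned ratio would swap higher and lower throughout. In RNA from a whole culture, more RNA per cell and more cells with the RNA cannot be told apart.

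Vacuolar hydrolases reach their compartment by separate routes. The soluble proteinase A (Pep4), proteinase B (Prb1) and carboxypeptidase Y (Prc1) travel through the secretory pathway as inactive precursors, and Pep4 starts the cascade that activates them. Aminopeptidase I (Ape1) and Ams1 are made in the cytosol and are carried directly to the vacuole by the cytoplasm-to-vacuole targeting (Cvt) pathway, which shares its machinery with autophagy. Pbi2 and Pai3 are cytosolic inhibitors of proteinase B and proteinase A.

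Of the 6 genes measured on all arrays, 5 were higher in treated cells (APE1, CPS1, PRC1, PEP4 and DAP2), none was lower, and APE3 did not pass the test. The means of all 6 were above 0. The test was limma's moderated test of the mean log2 ratio against 0, adjusted by Benjamini-Hochberg over the 2133 genes with a value on all 3 arrays, with a threshold of 0.05 on the adjusted p. Across those genes 37.2% were called higher and 25.3% lower, or 62.5% in either direction, so that most tested genes were called. The median log2 ratio was 1.59 over the 6 genes and 0.18 over all genes tested. Of the 6, 4 were called and at least 2-fold higher, where 22.0% of all tested genes were.

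PEP4 (YPL154C), the aspartyl endoprotease at the head of the activation cascade, had log2 ratios of 1.42, 1.16 and 1.85 on arrays 1, 2 and 3. All 3 arrays lay well above 0, and array 3 was the highest. The mean was 1.48 ± 0.35 (SD, n = 3), a 2.78-fold increase with a 95% confidence interval of 2.03-fold to 3.82-fold (limma adjusted p = 0.000585). Of the tested genes, 12.3% had a higher mean.

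The carboxypeptidases rose more evenly across arrays than PEP4. PRC1 (YMR297W), which encodes carboxypeptidase Y, the classic marker of vacuolar sorting, had log2 ratios of 1.60, 1.83 and 1.66. The 3 arrays were close to each other, with a mean of 1.69 ± 0.12 (SD, n = 3), or 3.24-fold (interval 2.48 to 4.23, limma adjusted p = 0.000134). CPS1 (YJL172W), the membrane-anchored carboxypeptidase S, had log2 ratios of 1.95, 2.13 and 2.26. Its mean was 2.11 ± 0.16, or 4.33-fold (interval 3.30 to 5.68, limma adjusted p = 5.47e-05). CPS1 exceeded PRC1 on every array, by 0.35, 0.30 and 0.60 on the log2 scale.

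The aminopeptidases held both the highest and the lowest mean of the 6 genes measured on all arrays. APE1 (YKL103C), the metallo-aminopeptidase that is the main cargo of the Cvt pathway, had log2 ratios of 2.76, 3.33 and 3.00. It was the highest of the 6 genes on each array, with a mean of 3.03 ± 0.29 (SD, n = 3), or 8.15-fold (interval 6.05 to 11, limma adjusted p = 1.66e-05). By size it stood at rank 42 of the 2133 genes tested, counted from the highest.

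DAP2 (YHR028C), the membrane-bound dipeptidyl aminopeptidase B, had log2 ratios of 0.58, 0.85 and 1.07. All were above 0 and all were below those of PEP4 on the same array. The mean was 0.83 ± 0.24, or 1.78-fold (interval 1.34 to 2.38, limma adjusted p = 0.00526). When the test asked for more than a 1.5-fold change, DAP2 was the one of the 5 called genes that no longer passed (limma treat, adjusted p = 0.23).

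APE3 (YBR286W), the vacuolar aminopeptidase Y, had log2 ratios of -0.07, 0.39 and 0.41. Array 1 lay just below 0 and the other two above it. The mean was 0.24 ± 0.27 (SD, n = 3; limma adjusted p = 0.276), and the 95% interval on the fold scale ran from 0.881 to 1.59. These arrays therefore do not separate no change from a decrease to 0.881-fold or an increase of up to 1.59-fold. The array medians over all tested genes were 0.05, 0.21 and 0.31, and relative to them APE3 stood at -0.12, 0.17 and 0.10.

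**Figure D1:**
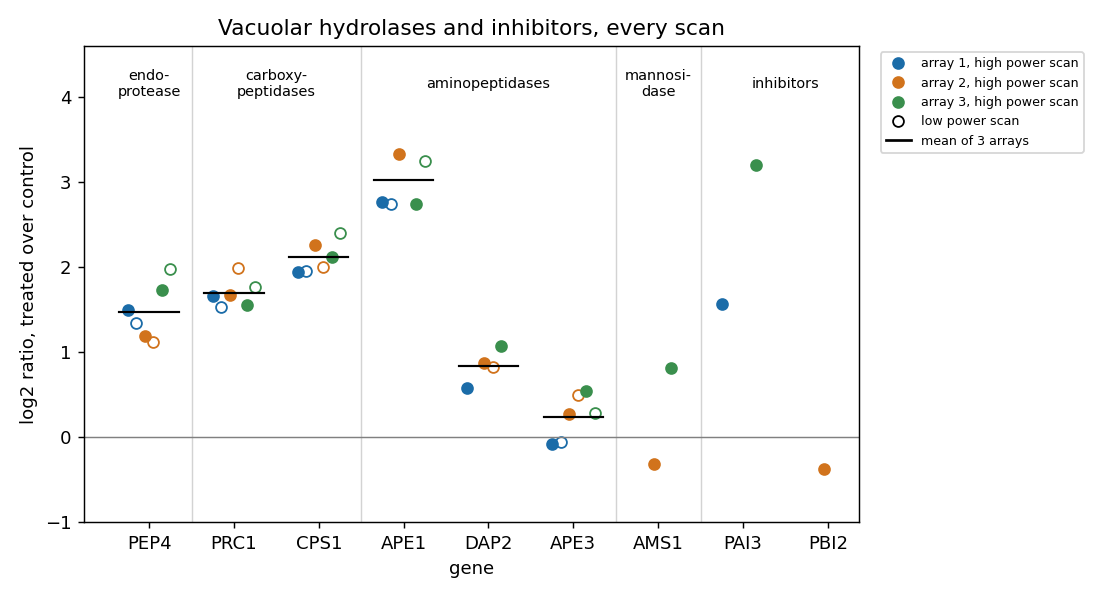
Log2 ratio of treated over control (vertical axis) for the 9 genes with a probe, grouped by role; filled circles are high power scans, open circles low power scans, colours mark the array, and black bars are means of genes with all 3 arrays. APE1 sits near 3, the carboxypeptidases and PEP4 between about 1 and 2.5, and APE3 near 0, while AMS1, PAI3 and PBI2 have high power values only, from 2, 2 and 1 arrays.

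The low power scans read the same hybridisation again. Both scans were present in 15 cases over the 6 genes, and their values differed by 0.015 to 0.50 on the log2 scale, with a median of 0.22. The median over all genes was 0.21 (3351 cases). The largest gap in the set was that of APE1 on array 3, where the high power scan gave 2.74 and the low power scan 3.25. The median SD between arrays was 0.26 for the 6 genes and 0.29 for all tested genes.

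The mannosidase and the inhibitors were measured less completely. AMS1 (YGL156W), the alpha-mannosidase that trims free oligosaccharides and shares the Cvt route with Ape1, had a log2 ratio of -0.32 on array 2 and of 0.82 on array 3, and none on array 1. The arrays disagreed in sign, and their mean of 0.25 had an SD of 0.80 (n = 2). On both arrays AMS1 was far below APE1, by 3.65 and by 2.18 on the log2 scale.

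PAI3 (YMR174C), the inhibitor of proteinase A, had log2 ratios of 1.57 on array 1 and 3.20 on array 3. Both were above 0, but they lay far apart, with a mean of 2.38 ± 1.16 (SD, n = 2). PBI2 (YNL015W), the inhibitor of proteinase B, which also takes part in vacuole fusion, had a single value of -0.37, on array 2. The 3 genes had values in the high power scans only, so no second scan of the same array was available for them.

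In a fit that also admitted genes with values on 2 arrays (3307 genes, of which 30.3% were called higher), PAI3 was called higher (limma adjusted p = 0.000245) and AMS1 was not called (adjusted p = 0.531). With 2 values a gene brings 1 residual degree of freedom, and its p leans on the variance pooled over genes. The SD of PAI3, 1.16, stands against a median SD of 0.29 over genes measured on 3 arrays. In that fit 6 of the 8 genes were called higher and none lower.

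Within an array the genes can be set against each other, since each ratio compares the same 2 RNA samples. With 3 arrays the exact two-sided sign-flip test used for them cannot give a p below 0.25, so by that test none of them can pass a threshold of 0.05, and they are given with their spread. Of the 6 differences planned between roles, 3 had a value on all arrays, 2 on 2 arrays, and PBI2 against PRB1 had none. The carboxypeptidases (mean of PRC1 and CPS1) exceeded the aminopeptidases (mean of APE1, APE3 and DAP2) by 0.68, 0.46 and 0.47, with a mean difference of 0.54 ± 0.13 (SD, n = 3; exact p = 0.25). That mean over the aminopeptidases joins APE1, which exceeded APE3 by 2.79 ± 0.18, with 2 genes of small change.

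PEP4, the only endoprotease measured, was below the carboxypeptidases on every array, by a mean of 0.43 (difference -0.43 ± 0.37, exact p = 0.25). Against the aminopeptidases its difference was 0.33, -0.37 and 0.36, so the arrays did not share a sign (mean 0.11 ± 0.41, exact p = 1). PAI3 exceeded PEP4, the protease it inhibits, by 0.15 on array 1 and by 1.35 on array 3. With such a spread the 2 arrays do not settle whether inhibitor and protease transcripts rose by different amounts (exact p = 0.5, the smallest that 2 arrays allow).

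Ordered by their mean log2 ratio, the 6 genes ran APE1, CPS1, PRC1, PEP4, DAP2, APE3. Of the 5 steps between neighbours in that order, 4 had the same sign on all arrays: APE1 above CPS1 by 0.91 ± 0.25, CPS1 above PRC1 by 0.42 ± 0.16, PEP4 above DAP2 by 0.64 ± 0.29 and DAP2 above APE3 by 0.59 ± 0.11 (SD, n = 3). PRC1 and PEP4 could not be ordered, since their difference was 0.18, 0.67 and -0.19. The order was read from the same values, so the steps describe it and do not test it.

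**Figure D2:**
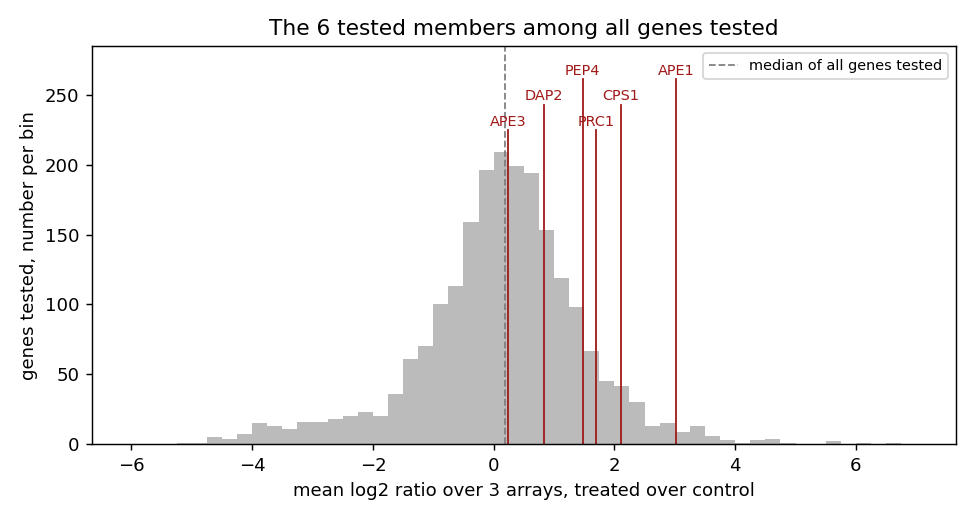
Distribution of the mean log2 ratio of treated over control (horizontal axis) over the 2133 genes tested, as the number of genes per bin; red lines mark the 6 genes measured on all arrays and the dashed line the median of all genes, 0.18. APE3 lies near that median, and APE1 lies in the upper tail, with 1.92% of the tested genes above it.

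The zero of the ratios comes from the arrays themselves. When each scan was centred on its median over all named genes except those of ribosomal proteins, the median of all tested genes moved from 0.18 to 0.078. Under that centring APE1 stood at 2.92, CPS1 at 1.99, PRC1 at 1.57, PEP4 at 1.35, DAP2 at 0.74 and APE3 at 0.12, and the same 5 genes passed (limma adjusted p between 1.62e-05 and 0.00803).

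TFS1 (YLR178C) encodes the cytosolic inhibitor of carboxypeptidase Y, and is the inhibitor outside the named set that pairs with PRC1. Its log2 ratios were 3.51, 3.46 and 3.93, all of them above every value of PRC1. TFS1 exceeded PRC1 by 1.94 ± 0.32 on the log2 scale (SD, n = 3; exact p = 0.25), with the same sign on all 3 arrays.

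The other hydrolases of the vacuole were mixed. Of 10 listed genes 7 were tested, 4 were higher, 1 was lower and 2 did not pass, with a median of 0.62. Across all tested genes 37.2% were higher and 25.3% lower. ATG42 (YBR139W), a vacuolar carboxypeptidase related to carboxypeptidase Y, rose by 1.22 ± 0.30 and the acid trehalase ATH1 by 1.18 ± 0.14 (SD, n = 3; limma adjusted p = 0.00109 and 0.000778). LAP3, a cysteine aminopeptidase that can follow the Cvt route, rose by 0.87 ± 0.13 (adjusted p = 0.00314). PHO8, the vacuolar alkaline phosphatase and itself a substrate of Pep4, fell by 0.67 ± 0.09 (log2 ratio -0.67, adjusted p = 0.00944), and lost its call without array 2 (-0.69, adjusted p = 0.058). The fourth increase, APE4, an aspartyl aminopeptidase carried by the Cvt pathway and named after its value was seen, was 0.62 ± 0.15 (adjusted p = 0.0148). Its call did not hold with high power scans alone (0.46, adjusted p = 0.0549), nor when array 2 (adjusted p = 0.121) or array 3 (adjusted p = 0.0726) was left out. With genes measured on 2 arrays admitted, all 10 were tested, 5 higher and 2 lower (30.3% and 24.7% over all genes of that fit), with a median of 0.61. ATG15 (1.54 ± 0.33) and PFF1 (-1.49 ± 0.38), named after their values were seen, were called there (SD, n = 2, limma adjusted p = 0.000692 and 0.00095).

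Genes that deliver Ape1 and Ams1 could be tested in part. Of 12 listed Cvt genes 5 were tested, 4 of them higher and 1 lower, with a median of 0.61. Among all tested genes 37.2% were higher and 25.3% lower. The Cvt counts were 2 higher and none lower when array 1 or array 3 was left out. ATG8, the ubiquitin-like protein of the autophagosome membrane, rose by 2.70 ± 0.58, and ATG1, the kinase that starts autophagy, by 2.26 ± 0.44 (SD, n = 3; limma adjusted p = 9.55e-05 and 0.000109). ATG19, the receptor that binds Ape1 and Ams1, changed less, at 0.61 ± 0.22 (adjusted p = 0.0188), and did not pass when array 1 was left out (0.53, adjusted p = 0.0975) or when array 3 was (0.56, adjusted p = 0.0868). ATG34, a related receptor named after its value was seen, was at 0.46 ± 0.17 (adjusted p = 0.0464) and lost its call when scans were centred on their median (0.42, adjusted p = 0.059) and without any one of the arrays (adjusted p of 0.0773 to 0.297). ATG27, a membrane protein of the Cvt pathway, fell by 0.52 ± 0.08 (log2 ratio -0.52, adjusted p = 0.0249), and lost its call without any one of the arrays (adjusted p of 0.0904 to 0.121).

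**Figure D3:**
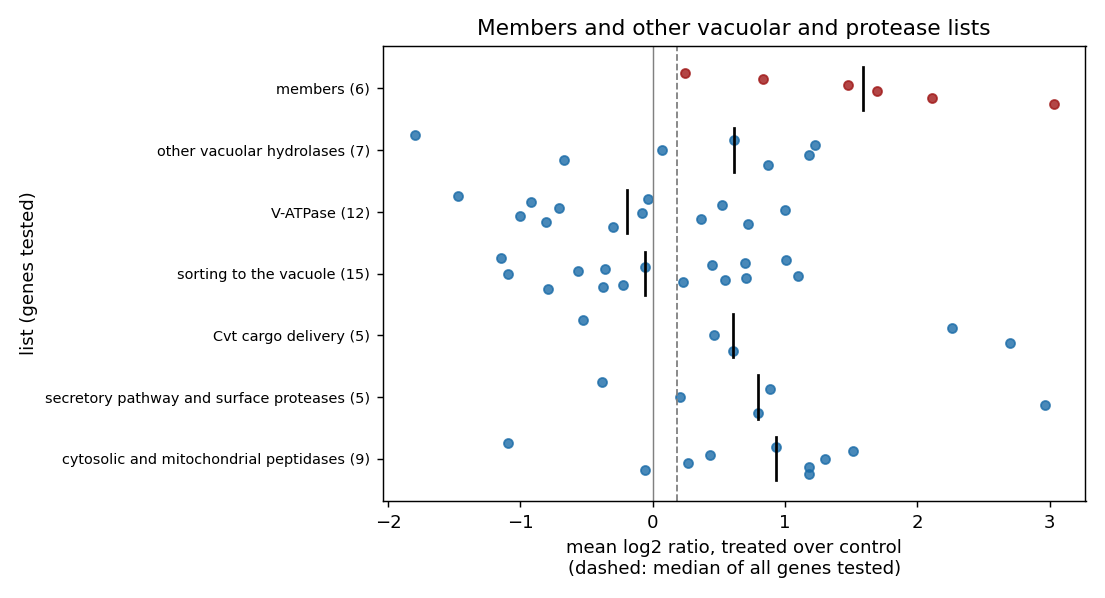
Mean log2 ratio of treated over control (horizontal axis) of each gene tested on 3 arrays, by list, with the number of tested genes in brackets; short black bars are list medians and the dashed line is the median of all genes tested, 0.18. The 6 members have a median of 1.59, and the other 6 lists drawn have medians between -0.19 and 0.94 with members on both sides of 0.

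Peptidases outside the vacuole also rose in part. Of 9 tested genes of the cytosol and mitochondria 5 were higher and 1 lower (median 0.94). The shares over all tested genes were 37.2% higher and 25.3% lower. The list was led by DUG1, a cytosolic dipeptidase, at 1.51 ± 0.23, and the cytosolic metallopeptidase PRD1 at 1.30 ± 0.48 (SD, n = 3; limma adjusted p = 0.000314 and 0.0018). The mitochondrial peptidase CYM1 rose by 1.18 ± 0.28 and DUG2, of glutathione breakdown, by 1.18 ± 0.32 (adjusted p = 0.00118 and 0.00139). The 1 lower gene, MAP1, a methionine aminopeptidase named after its value was seen, stood at -1.10 ± 0.19 (adjusted p = 0.00124), and the fifth higher one, FRA1, likewise named afterwards, at 0.94 ± 0.28 (adjusted p = 0.00365). In the fit that admitted genes measured on 2 arrays, 14 peptidases of the cytosol and mitochondria were tested, 6 higher and 1 lower. Their median there was 0.44. Of 5 tested proteases of the secretory pathway and cell surface 3 were higher and none was lower (median 0.79). However, 1 was called lower with high power scans alone. The same held when scans were centred on their median, with or without the ribosomal protein genes. With genes measured on 2 arrays admitted, 10 were tested, 4 higher and 3 lower, with a median of -0.086, so the list as a whole had no settled direction. That fit called 30.3% of all its genes higher and 24.7% lower. The 3 lower genes of that fit, named after their values were seen, were the yapsin MKC7, KEX2 and AXL1. They stood at -2.32 ± 1.17, -1.31 ± 0.98 and -0.76 ± 0.35 (SD, n = 2), with limma adjusted p = 0.000308, 0.00729 and 0.0365. The yapsin YPS6, which was not on the list and is named below for its nearness to CPS1, stood at 2.13 (limma adjusted p = 5.18e-05). STE24, a membrane protease that matures the a-factor pheromone, rose by 2.96 ± 0.14, the yapsin YPS1 by 0.89 ± 0.14 and STE13, the Golgi relative of Dap2, by 0.79 ± 0.17 (adjusted p = 1.24e-05, 0.00295 and 0.00526). STE13 and DAP2 thus had nearly the same mean, 0.79 and 0.83.

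Vacuolar peptidase genes are known to be expressed more strongly as glucose runs out, and markers of general stress and slow growth were set beside them. Of 26 listed markers 18 were tested, of which 9 were higher, 2 lower and 7 did not pass, where 37.2% and 25.3% of all tested genes were higher and lower. Their median of 0.59 moved with the arrays used, to 0.89 without array 1 and to 0.31 without array 3, where 8 were higher and 4 lower. The medians of the 18 tested markers were 0.17, 0.66 and 1.16 on arrays 1, 2 and 3. Those of the 6 vacuolar genes were 1.51, 1.49 and 1.76. With genes measured on 2 arrays admitted, 20 markers were tested, 11 higher and 2 lower, with a median of 0.91. Over all genes of that fit 30.3% were higher and 24.7% lower. The 6 markers with values on only 1 or 2 arrays had a median of 2.58, so the marker median depended on which genes were admitted. HXT5, a hexose transporter of slow-growing cells, was at 5.51 ± 0.25, ALD3 at 3.40 ± 0.32, DDR2 at 3.34 ± 0.91 and HSP12 at 3.13 ± 1.19 (SD, n = 3; limma adjusted p between 7.81e-06 and 0.000563). The 7 markers that did not pass, named after their values were seen, included CTT1 (0.34 ± 0.45), HSP104 (0.12 ± 0.79) and CIT2 (0.49 ± 0.82). PGM2 (-0.46 ± 0.82) and GLK1 (-0.28 ± 0.54) were also among them. ADH2 and HXT7, both repressed by high glucose and named after their values were seen, were lower, at -2.90 ± 0.47 and -2.11 ± 0.44 (limma adjusted p = 4.27e-05 and 0.000156). ADH1, at -2.92 ± 0.19, is similar to ADH2 in sequence, and its cDNA may bind the ADH2 probe. Other glucose-repressed markers, likewise named afterwards, were mixed. ALD4 rose by 1.43 ± 0.49 (limma adjusted p = 0.00123) and FBP1 was at 1.12 ± 0.18 on 2 arrays. PCK1 (0.39 ± 0.82) and HXK1 (-0.53 ± 0.69) did not pass, and ACS1 and MLS1 were above 0 on their 1 array. The part of growth state in the vacuolar increases was not tested.

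For each of the 6 genes, the 2 tested genes with the smallest root mean square difference of the log2 ratio over the 3 arrays were taken as nearest in pattern. For APE1 these were SFA1, at 0.21, and SPI1, at 0.22, and no gene lay within 0.2 of it. For CPS1 they were YPS6 (0.048) and ERV29 (0.058), for PRC1 NPL4 (0.12) and RPN12 (0.14), and for PEP4 YBR287W (0.089) and YHR140W (0.12). For DAP2 they were TDA4 (0.050) and COX9 (0.070), and for APE3 AGP2 (0.042) and SML1 (0.060). Within 0.2 there were 75 genes around APE3, 63 around DAP2, 21 around CPS1, 17 around PRC1 and 14 around PEP4. The nearness of a gene to APE3 or DAP2 thus sets it apart little, since many genes have ratios of that size. A likeness over 3 arrays rests mainly on the size of the mean.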

How the data were processed

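Per the labels, the authors normalised the ratios of each scan by LOWESS over unflagged spots. What they deposited is a log2 ratio for every probe in every scan. The log base follows from the lowest value, -6.644, a ratio of 0.01. Signal over background and the array's genome build are not known here, so the number of arrays limits the precision. GEO's platform annotation named 5446 of 6912 probes, and a probe without a symbol may still represent a gene. Systematic names came from the NCBI gene table of assembly R64, which held all 5379 gene identifiers.

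Probes of a gene were averaged, then the scans of each array. The test was limma 3.58.1 (R 4.3.3; lmFit, eBayes, 4.84 prior and 2 residual degrees of freedom) on genes measured on every array, and was tested on simulated data. Errors are SDs over arrays and intervals are limma's 95% intervals. Differences between genes were taken within arrays, with an exact sign-flip test.

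Members, lists and tests were chosen with earlier results of these data known. Named were the members, TFS1, up to 4 called genes of each other list by size of change (2 where none was called), and 2 nearest genes per member. A planned promoter motif search was not run, as no promoter sequences were used here. The alternatives varied scan power, the treatment of repeat scans, centring, scaling, missing-value filters, variance moderation, thresholds and the arrays included.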

Additional observations from a re-analysis of the deposited data

How the results depend on the processing

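The count of members called higher was 4 to 6 and none was called lower under all alternatives but one: with low power scans alone it was 3, out of the 4 members with low power values on all arrays. Over all genes 1333 were called, against 403 with low power scans alone (560 tested) and 720 with a minimum fold of 1.5. Leaving out 1 array gave 5 to 6 members called higher (PAI3 being the sixth without array 2), none called lower, and 1072 to 1648 genes called. PEP4 ranged from 1.29 to 1.64, PRC1 from 1.57 to 1.76, CPS1 from 1.99 to 2.20, APE1 from 2.88 to 3.16, DAP2 from 0.72 to 0.96 and APE3 from 0.12 to 0.40 on the log2 scale over the alternatives that gave a value, all keeping their call except DAP2 under the minimum fold. PEP4 minus the aminopeptidases was 0.11 and turned to -0.002 without array 1 and -0.019 without array 3, and was 0.35 without array 2. The carboxypeptidases minus the aminopeptidases was 0.69 with low power scans alone, where APE1 lacked array 2 and DAP2 lacked arrays 1 and 3. PEP4 minus the carboxypeptidases ran from -0.59 to -0.23, and the carboxypeptidases minus the aminopeptidases from 0.46 to 0.57, without 1 array. AMS1 minus APE1 ran from -3.65 to -2.18 and PAI3 minus PEP4 from 0.15 to 1.35 without 1 array. No paired analysis was possible because there is 1 group of arrays, in which each ratio already compares a treated with a control sample. SGA1, outside the members, ran from -3.19 to 0.62 without 1 array, the upper value being that without array 1. Fits without 1 array have 1 residual degree of freedom and lean on the pooled variance. Signal over background is unknown, and PRB1, PBI2, PAI3 and AMS1 are limited by missing values.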

Other observations

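Pep4, Prb1 and the other soluble vacuolar peptidases work in an acidic lumen that the vacuolar proton pump, the V-ATPase, maintains. Of 18 listed subunits and assembly factors 12 were tested, 3 were higher, 5 were lower and 4 did not pass, with a median log2 ratio of -0.19 (0.18 over all genes tested). Over all tested genes 37.2% were higher and 25.3% lower. The V-ATPase median was -0.012 without array 1 and -0.38 without array 3. The fit that also admitted genes measured on 2 arrays called 30.3% of all its genes higher and 24.7% lower, with a median of 0.086. In that fit 15 V-ATPase genes were tested, 2 higher and 7 lower, with a median of -0.68. The 3 that rose were the proteolipids of the proton-conducting ring: VMA11 rose by 1.00 ± 0.28, and VMA3 and VMA16, named after their values were seen, by 0.72 ± 0.07 and 0.52 ± 0.18 (SD, n = 3; limma adjusted p = 0.00268, 0.00657 and 0.0302). VMA16 lost its call when the ribosomal protein genes were kept out of the centring of the scans (0.41, adjusted p = 0.068) and without any one of the arrays. The proteolipid genes are similar in sequence, and cDNA of one may bind the probe of another. Among the 5 lower genes were 3 subunits of the catalytic sector, VMA8 (-1.01 ± 0.19), VMA5 (-0.92 ± 0.06) and VMA2 (-0.71 ± 0.15), and 2 of the membrane sector, VMA6 (-1.47 ± 0.30) and VPH1 (-0.80 ± 0.20), with adjusted p between 0.000461 and 0.00829; VMA2 and VPH1 were named after their values were seen. VMA2 lost its call without array 2 (-0.69, adjusted p = 0.0585).

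Of 35 listed sorting factors 15 were tested, 6 were higher and 4 lower, shares near the 37.2% and 25.3% over all tested genes. The counts were 4 higher and 6 lower when ribosomal protein genes were kept out of the centring, and 3 higher and 3 to 4 lower when any one array was left out. VPS29, a retromer subunit, rose by 1.10 ± 0.18 and VPS4, the ATPase that disassembles ESCRT complexes, by 1.01 ± 0.11 (SD, n = 3; limma adjusted p = 0.00118 and 0.00148). The AP-3 adaptor subunit APL6 fell by 1.14 ± 0.16 (log2 ratio -1.14) and the dynamin-like VPS1 fell by 1.09 ± 0.18 (log2 ratio -1.09), with adjusted p = 0.000935 and 0.00123. A second AP-3 subunit gene, APL5, named after its value was seen, stood at -0.79 ± 0.13 (adjusted p = 0.00475). PEP1, the sorting receptor of carboxypeptidase Y, named after its value was seen, stood at -0.57 ± 0.18 (adjusted p = 0.0224), while its cargo gene PRC1 was higher on the same arrays; PEP1 did not pass when array 1 was left out (-0.49, adjusted p = 0.125) or when array 2 was (-0.54, adjusted p = 0.146).

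SGA1, a vacuolar glucoamylase of sporulating cells singled out after its values were seen, had log2 ratios of -6.63, 0.26 and 0.98 on arrays 1, 2 and 3 and did not pass (limma adjusted p = 0.275). Fits on 2 arrays, which lean on the variance pooled over genes, called it in opposite directions: higher without array 1 (0.62, adjusted p = 0.0483) and lower without array 2 (-2.83, adjusted p = 1.71e-06). Its direction is therefore not settled by these arrays.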
